A study of Mus musculus with 6 samples.

Results

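The genes described here encode 37 pore-forming subunits of neuronal potassium, sodium, calcium and hyperpolarization-activated cation (HCN) channels, out of 27179 genes in the deposited table. They were found by their gene symbol, and each symbol matched 1 row. RNA was measured by poly(A) sequencing in cerebral cortex of C57BL/6N mouse embryos at E18.5. The Control group (3 libraries, FF1, FF2 and FF4) had the genotype Cap1 flx/flx, and the CAP1-KO group (3 libraries, FCRE3, FCRE4 and FCRE5) had Cap1flx/flx,Nestin-CRE. Both groups therefore carry the conditional allele of Cap1, which encodes an actin-binding protein, and the CAP1-KO group adds Cre recombinase driven by Nestin, a gene of neural progenitors whose descendants include cortical neurons and glia. No group here carried Cre without the conditional allele, so an effect of Cre itself cannot be told apart from that of Cap1 loss.

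Voltage-gated sodium channels carry the rising phase of the action potential, and potassium channels end it and set the resting potential. Calcium channels admit the calcium that releases transmitter at axon terminals and that signals in the cell body and dendrites. HCN channels open on hyperpolarization and carry a depolarizing current. Many of these genes are still increasing their expression around birth, as cortical neurons become excitable.

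Levels are given as CPM (reads of a gene scaled to a common library size), rebuilt from the deposited log2 values, and whole reads could be recovered from all 6 libraries (32443864 to 36302598 reads). Cap1 fell from 184 ± 16.2 to 85.1 ± 2.0 CPM (mean ± SD, n = 3 each, log2 fold change -1.10, limma adjusted p = 0.000283). The libraries did not group by genotype alone. FF4 stood apart from FF1 and FF2: the 12 upper layer neuron markers summed to 2783 CPM in FF1, 2839 CPM in FF2 and 2050.3 CPM in FF4, against 2042 to 2161 CPM in CAP1-KO, and the 15 striatal neuron markers summed to 739, 711 and 905 CPM, against 831 to 920 CPM. The 12 deep layer markers, which with the upper layer markers define the labelled tissue, were all detected and summed to 1467 to 1822 CPM in Control and 1372 to 1518 CPM in CAP1-KO. The 8 choroid plexus markers summed to 2.56 to 7.31 CPM in Control and 54.7 to 118 CPM in CAP1-KO. The 11 microglia markers had a median log2 fold change of 0.56 (1 called higher, 0 lower, none at 0 reads) and summed to 63.4 to 82.2 CPM in Control and 93.6 to 118 CPM in CAP1-KO. Of 9 tested endothelial markers 2 were called lower and 0 higher, with a median of -0.34, and the 10 listed summed to 161 to 181 CPM and 128 to 145 CPM. The 10 meningeal fibroblast markers summed to 57.6 to 62.7 CPM in Control and to 61.1, 170.0 and 159 CPM in FCRE3, FCRE4 and FCRE5. Xist measured 2296 CPM in FF2, 0.577 CPM in FF1, 2.05 CPM in FF4 and 2398 to 2653 CPM in CAP1-KO, so sex was not balanced. The part of these differences in the results below was not tested, and the main counts are also given without FF4 and against FF4 alone.

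All 37 channel genes were expressed above the filter of a mean of 1 CPM, with between 99 and 9963 reads in a library. Per kb of the longest coding transcript, Cacna1h, which encodes a low-threshold T-type calcium channel, had the highest Control level (34.0 ± 2.82 CPM per kb, SD, n = 3). It was followed by Scn3a (22.1 ± 0.40 CPM per kb), the sodium channel typical of embryonic neurons, and by Kcnk2 (21.7 ± 0.92 CPM per kb), a leak potassium channel opened by membrane stretch, and the mean of Scn3a lay within 1 SD of that of Kcnk2. The next were Cacna1g (18.4 ± 0.15 CPM per kb) and Cacna1e (17.7 ± 0.68 CPM per kb), whose Control ranges overlapped. Thus 3 of the 5 highest levels per length belonged to calcium channels. Kcnb2, a delayed rectifier, had the lowest level (0.665 ± 0.064 CPM per kb), and Kcnh5, Kcnh7, Kcnh1 and Kcnj6 lay between 1.13 and 1.34 CPM per kb. The order depends on the length used, because several of these transcripts have long untranslated ends: per kb of coding length Kcnk2 came first (60.7 CPM per kb), Kcnc1 second (53.5 CPM per kb) and Kcnd3 and Cacna1h followed (46.3 and 39.5 CPM per kb).

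**Figure D1:**
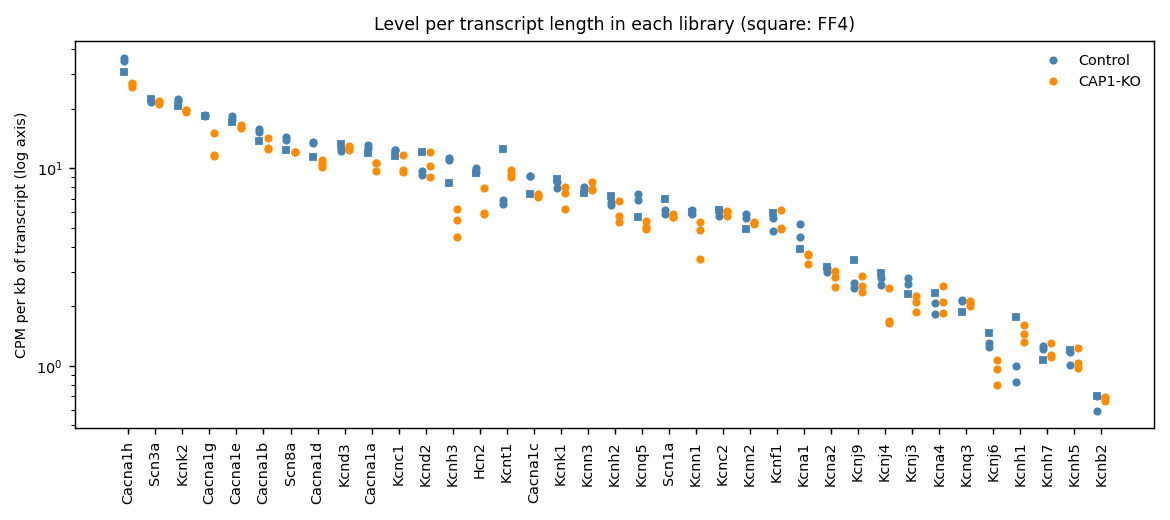
Level of each channel gene per kb of its longest coding transcript (vertical log axis, CPM per kb) in every library, ordered by the Control mean. Blue points are Control libraries (FF4 as a square) and orange points are CAP1-KO libraries. Cacna1h lies highest and Kcnb2 lowest.

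Channel genes were mostly slightly lower in CAP1-KO, with 1 change past the threshold. Tested in limma on log2(CPM + 1) with p-values adjusted over 13885 genes, 1 of 37 members fell (Kcnh3) and 0 rose. Of all tested genes 0.403% fell and 0.562% rose. At an unadjusted p under 0.05, 18 members were lower and 0 higher, beside 15.3% and 7.74% of all tested genes, and limma-voom on recovered reads also called 1 lower and 0 higher. The log2 fold change was negative in 29 of 37 members, beside 51.7% of tested genes; it was negative in 27 without FF4 and in 33 against FF4 alone. The median was -0.15, beside -0.01 over all tested genes. Scaled to total recovered reads, the median was -0.087 beside 0.06 over all tested genes, with 24 members negative, 13 lower and 0 higher at an unadjusted p under 0.05, and 2 called lower. In 15 members (40.5%) the 3 CAP1-KO libraries were all lower than the lowest Control library, beside 14.6% of tested genes, and in 0 they were all higher than the highest, beside 11.1%. In such bulk RNA fewer neurons and less channel RNA per neuron cannot be told apart. The 12 pan-neuronal markers had a median of -0.12, with 10 of 12 negative, 0 called by limma in either direction, 5 lower at an unadjusted p under 0.05 and 0 called by limma-voom; they summed to 8913 to 9759 CPM in Control and 8607 to 8776 CPM in CAP1-KO. Without FF4 5 of them were called lower and 0 higher, and against FF4 alone 0 were called, with 3 lower at an unadjusted p under 0.05. Of all tested genes 18.9% were called lower without FF4 and 9.36% higher. None of the 12 pan-neuronal markers was at 0, and their part in the channel values was not tested.

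**Figure D2:**
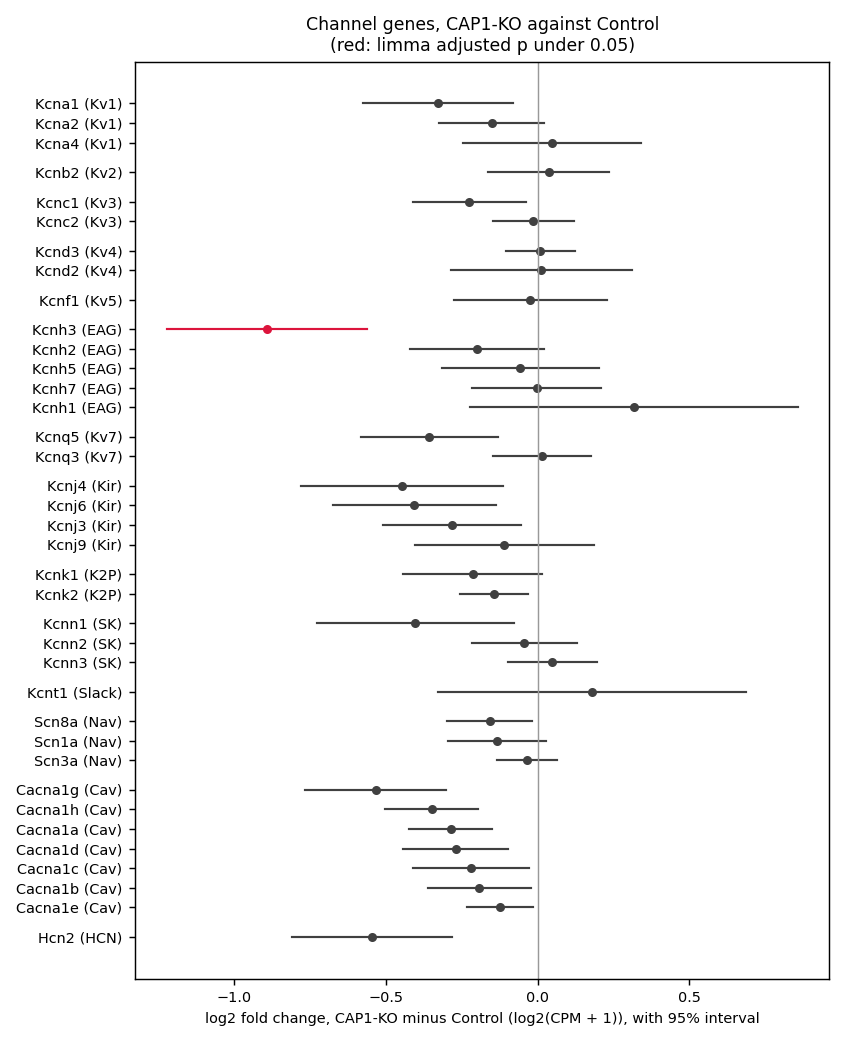
Log2 fold change of each channel gene, CAP1-KO minus Control on the log2(CPM + 1) scale (horizontal axis), with its 95% interval from limma, grouped by channel family. Kcnh3, in red, is the member with an adjusted p under 0.05, and all 7 calcium channel genes lie left of 0.

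Among voltage-gated potassium channels, Kcnh3 fell to 52.7% of its Control level. Kcnh3 (gene number 16512, chr15:99224517-99242818 in GRCm38) encodes Kv12.2, an Elk channel of forebrain neurons that is open near the resting potential and limits excitability. It measured 40.7 CPM in FF1, 41.9 CPM in FF2 and 31.3 CPM in FF4, while the CAP1-KO libraries FCRE3, FCRE4 and FCRE5 measured 16.6, 23.1 and 20.3 CPM. The groups did not overlap, and FF4 was the lowest Control library. The log2 fold change was -0.89 (SE 0.14, 95% interval -1.22 to -0.56, limma adjusted p = 0.0371), and the authors' deposited table gives -0.92 with an FDR of 0.0461. The call was kept in 7 of 14 alternatives, with an adjusted p from 0.000523 to 0.387. It was lost without FF1 (log2 fold change -0.84, adjusted p = 0.181), without FF2 (-0.82, 0.157), without FCRE3 (-0.77, 0.111) and without FCRE5 (-0.91, 0.179). It was also lost with no filter on low values (-0.89, 0.0747) and when Xist was added as a covariate (-1.02, 0.204), and the fold was smaller against FF4 alone (-0.63, 0.387).

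Among the other 4 genes of the EAG family, to which Kcnh3 belongs, 0 were called in either direction by limma or limma-voom, and 0 had an unadjusted p under 0.05. Kcnh2, which encodes an Erg channel known for the repolarization of the heart, measured 27.6 to 30.6 CPM in Control and 22.5 to 29.0 CPM in CAP1-KO, and the groups overlapped (log2 fold change -0.20, 95% interval -0.42 to 0.02, limma adjusted p = 0.254). Kcnh7, the Erg channel of the nervous system, measured 14.3 to 16.9 CPM in Control and 14.7 to 17.5 CPM in CAP1-KO. Kcnh5, an ether-a-go-go channel, was low in both groups, at 4.11 to 4.89 and 3.93 to 5.01 CPM. Kcnh1, the founding ether-a-go-go channel, measured 7.18 CPM in FF1, 5.98 CPM in FF2 and 12.8 CPM in FF4, and 10.5, 11.7 and 9.56 CPM in FCRE3, FCRE4 and FCRE5. Its FF4 level exceeded that of every CAP1-KO library, while FF1 and FF2 lay below them all. Its log2 fold change was accordingly 0.32 against all Control libraries (limma adjusted p = 0.448), 0.61 without FF4 (adjusted p = 0.0045) and -0.26 against FF4 alone (adjusted p = 0.666).

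None of the remaining 11 voltage-gated potassium channels passed the test. Kcnq5, a subunit of the M-current that muscarinic receptors switch off, measured 48.0, 51.4 and 39.3 CPM in FF1, FF2 and FF4, and 35.1, 37.6 and 34.4 CPM in the CAP1-KO libraries. The groups did not overlap, with FF4 nearest to the CAP1-KO libraries (log2 fold change -0.36, SE 0.10, limma adjusted p = 0.109). Its partner Kcnq3 measured 22.2 to 25.4 CPM in Control and 23.8 to 25.3 CPM in CAP1-KO. Kcna1, a low-threshold delayed rectifier of axons, measured 18.0, 20.96 and 15.7 CPM in Control and 14.6, 13.2 and 14.8 CPM in CAP1-KO, again without overlap (log2 fold change -0.33, SE 0.11, limma adjusted p = 0.136). Kcna2, which co-assembles with Kcna1 products, measured 34.5 to 36.7 CPM in Control and 29.1 to 35.1 CPM in CAP1-KO, with overlap. Kcnc1, a channel of fast-spiking neurons, measured 96.3, 96.1 and 89.1 CPM in Control and 74.6, 90.7 and 76.0 CPM in CAP1-KO. Its groups overlapped through FCRE4 and FF4 alone (log2 fold change -0.22, limma adjusted p = 0.157), and its paralog Kcnc2 measured 28.8 to 31.2 and 28.9 to 30.8 CPM. The A-type channel genes Kcnd2, Kcnd3 and Kcna4, whose products shape the delay before firing, overlapped between groups: Kcnd3 measured 87.5 to 95.05 CPM in Control and 89.0 to 93.5 CPM in CAP1-KO. Kcnb2 (8.78 to 10.5 and 9.86 to 10.4 CPM) and Kcnf1, a silent subunit that modulates Kv2 channels (23.0 to 28.4 and 23.6 to 29.5 CPM), overlapped too. Together 12 of the 37 members, among them Kcnd2, Kcnd3, Kcnc2, Kcnq3 and Kcnh7, had a log2 fold change between -0.06 and 0.05, and the test passed for none of them. Their 95% intervals were of unequal width: that of Kcnd3 ran from -0.10 to 0.12 and that of Kcnc2 from -0.15 to 0.12, while that of Kcna4 ran from -0.25 to 0.34 and that of Kcnh5 from -0.32 to 0.20.

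**Figure D3:**
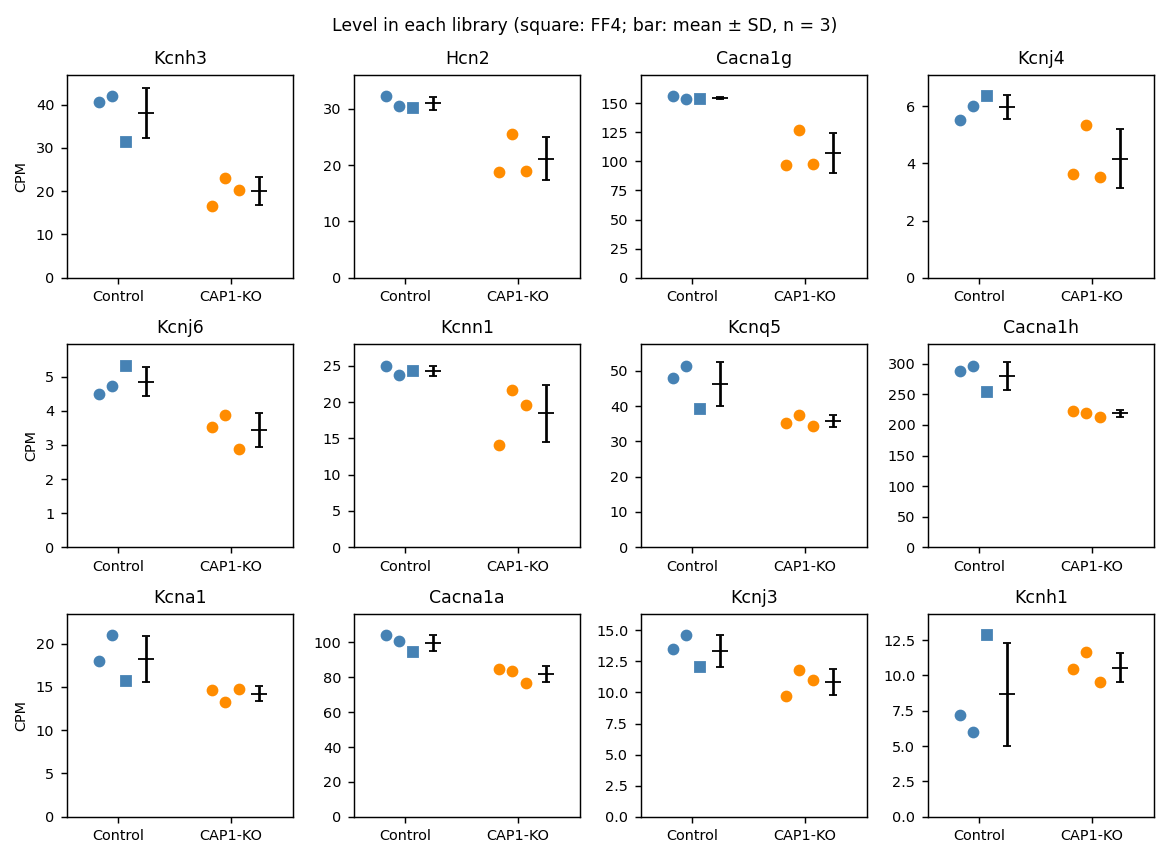
CPM in each library (vertical axis, from 0) for the 12 channel genes with the largest absolute log2 fold change. Blue is Control (FF4 as a square), orange is CAP1-KO, and the black bar is the mean ± SD of 3 libraries. In 11 panels every CAP1-KO library lies below every Control library, and in Kcnh1 the Control library FF4 lies above the others.

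Inward rectifier and leak channel genes had lower means in CAP1-KO, and none passed the test. Inward rectifiers pass potassium near rest, and the products of Kcnj3, Kcnj6 and Kcnj9 form the channels that G protein-coupled receptors open. Of the 4 inward rectifier genes 0 were called in either direction by limma or by limma-voom, and 3 were lower at an unadjusted p under 0.05. Of all tested genes 15.3% were lower at that threshold, and in 14.6% the CAP1-KO libraries all lay below Control. Kcnj4, which encodes the strong rectifier Kir2.3, measured 5.51, 6.01 and 6.34 CPM in Control and 3.62, 5.34 and 3.53 CPM in CAP1-KO (fold change on the log2 scale -0.45, SE 0.14, limma adjusted p = 0.133). FCRE4 lay just under the lowest Control library, and without it Kcnj4 passed the test (adjusted p = 0.0470). Kcnj6 measured 4.49, 4.73 and 5.32 CPM in Control and 3.51, 3.88 and 2.89 CPM in CAP1-KO (fold change on the log2 scale -0.41, SE 0.12, limma adjusted p = 0.113). Kcnj3 measured 13.5, 14.6 and 12.02 CPM in Control and 9.73, 11.8 and 11.0 CPM in CAP1-KO (fold change on the log2 scale -0.28, SE 0.10, limma adjusted p = 0.1504). These 3 genes did not overlap between groups, whereas Kcnj9 did, at 9.50 to 13.2 and 9.15 to 11.0 CPM. Kcnk2, at 74.1 to 80.6 CPM in Control and 68.8 to 70.9 CPM in CAP1-KO, was separated by a small margin (log2 fold change -0.14, limma adjusted p = 0.144). Kcnk1, another leak channel, overlapped at 17.9 to 19.8 and 13.9 to 18.0 CPM.

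Of the 4 potassium channel genes whose products are opened by intracellular ions, none passed the test. Kcnn1, a small-conductance channel that calcium opens through calmodulin, measured 25.0, 23.7 and 24.3 CPM in Control and 14.0, 21.6 and 19.6 CPM in CAP1-KO. Its Control libraries were nearly equal, while FCRE3 lay far below the other CAP1-KO libraries (log2 fold change -0.40, SE 0.14, limma adjusted p = 0.151). Its paralogs Kcnn2 (18.2 to 21.7 and 19.3 to 19.7 CPM) and Kcnn3 (21.7 to 23.3 and 22.4 to 24.6 CPM) overlapped. Kcnt1 encodes Slack, a channel that sodium opens. It measured 40.7 CPM in FF1, 38.6 CPM in FF2 and 73.7 CPM in FF4, and 54.9, 57.9 and 53.2 CPM in the CAP1-KO libraries. FF4 was highest of all and FF1 and FF2 lowest of all, as in Kcnh1, with a log2 fold change of 0.18 against all Control libraries (limma adjusted p = 0.659), 0.47 without FF4 (adjusted p = 0.000659) and -0.41 against FF4 alone (adjusted p = 0.136).

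Of the 3 sodium channel genes 0 were called in either direction by limma or limma-voom. At an unadjusted p under 0.05 1 of them (Scn8a) was lower, beside 15.3% of all tested genes. Scn3a measured 208, 211 and 216 CPM in Control and 209.6, 202 and 208 CPM in CAP1-KO, with overlap (95% interval of the log2 fold change -0.13 to 0.06). Scn8a, the channel that comes to dominate mature axon initial segments, measured 164, 159.9 and 142 CPM in Control and 139.1, 139.1 and 138.7 CPM in CAP1-KO. The groups did not overlap, but FF4 lay close to the CAP1-KO libraries, and the log2 fold change of -0.16 (limma adjusted p = 0.172) became -0.03 against FF4 alone. Scn1a, a channel prominent in inhibitory neurons, measured 49.2, 51.7 and 58.7 CPM in Control and 47.8, 47.8 and 49.5 CPM in CAP1-KO, and FCRE5 exceeded FF1.

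All 7 calcium channel genes had lower means in CAP1-KO, and none of them passed the limma test at the adjusted threshold. All 7 had an unadjusted p under 0.05, beside 15.3% of all tested genes lower at that threshold. Limma-voom called 0 of the 7 in either direction. In 5 of 7 the CAP1-KO libraries all lay below Control, beside 14.6% of all tested genes. The summed level of the 7 genes was 1087 to 1219 CPM in Control and 932 to 1004 CPM in CAP1-KO. The T-type channels, which open at low voltages and support burst firing, showed the largest log2 fold changes against all 3 Control libraries. Against FF4 alone the T-type Cacna1h and the P/Q-type Cacna1a were both at -0.21. Cacna1g (gene number 12291, chr11:94408391-94474400) measured 156, 153.9 and 153 CPM in FF1, FF2 and FF4, and 97.2, 127 and 97.5 CPM in FCRE3, FCRE4 and FCRE5. Its Control libraries were nearly equal, and FCRE4 lay between them and the other CAP1-KO libraries. The log2 fold change was -0.53 (SE 0.10, 95% interval -0.76 to -0.30, limma adjusted p = 0.0592), and it was -0.52 against FF4 alone and -0.54 without FF4. Cacna1h (gene number 58226, chr17:25374285-25436334) measured 289, 297 and 253 CPM in Control and 223, 220.2 and 213 CPM in CAP1-KO. The log2 fold change was -0.35 (SE 0.07, limma adjusted p = 0.0626); scaled to total recovered reads, where 0.389% of tested genes were called lower and 0.749% higher, it passed, and the authors' deposited table gives -0.35 with an FDR of 0.0455. There, 2 of the 37 members are lower at an FDR under 0.05, Kcnh3 and Cacna1h, beside 0.412% of its genes, and 0 are higher, beside 0.401%.

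Against all 3 Control libraries, high-threshold calcium channels were lower by smaller amounts. Cacna1a, the P/Q-type channel of presynaptic terminals, measured 104, 100.7 and 94.8 CPM in Control and 84.8, 83.8 and 76.6 CPM in CAP1-KO (fold change on the log2 scale -0.29, SE 0.06, limma adjusted p = 0.0737). Cacna1b, the N-type channel, measured 149, 155 and 134 CPM in Control and 122, 139 and 123 CPM in CAP1-KO, so FCRE4 exceeded FF4. Cacna1e, the R-type channel, measured 255 to 275 CPM in Control and 239 to 246 CPM in CAP1-KO without overlap (log2 fold change -0.12, limma adjusted p = 0.176). The L-type channels, which couple activity to gene expression, depended on the Control library. Cacna1c measured 121, 120.0 and 97.7 CPM in FF1, FF2 and FF4 and 97.9, 96.5 and 94.4 CPM in CAP1-KO, so FF4 lay inside the range of the CAP1-KO libraries (log2 fold change -0.22, and -0.02 against FF4 alone). Cacna1d measured 117, 118 and 99.2 CPM in Control and 96.0, 91.1 and 88.5 CPM in CAP1-KO, with FF4 next to FCRE3 (log2 fold change -0.27, and -0.11 against FF4 alone).

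Hcn2 (gene number 15166, chr10:79716634-79736108) was the second most reduced member and did not pass the test. It measured 32.2, 30.5 and 30.2 CPM in FF1, FF2 and FF4, and 18.8, 25.5 and 19.0 CPM in FCRE3, FCRE4 and FCRE5. As for Cacna1g, the Control libraries were close together and FCRE4 was the highest of the CAP1-KO libraries. The log2 fold change was -0.54 (SE 0.11, 95% interval -0.81 to -0.28, limma adjusted p = 0.0750), with -0.51 against FF4 alone. Without FCRE4 4 members were called lower, Kcnh3, Cacna1g, Hcn2 and Kcnj4, and 0 higher (17 lower and 0 higher at an unadjusted p under 0.05), beside 1.26% and 0.562% of tested genes. FCRE4 was the highest CAP1-KO library in 21 of 37 members, beside 38.3% of tested genes.

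Because the series concerns genes under the transcription factor SRF, the promoters of the members were searched for its binding site, the CArG box, and for other common elements. RefSeq windows (GRCm38.p6, 250 bases before to 50 after a start site) were at hand for 27 members, in 40 windows, searched on both strands. The CArG box was found in 0 of 27 members, beside 1.81% of 27025 genes. TGACGTCA, the element of cAMP-responsive genes, and TTCAGCACC, the left part of the element bound by the neuronal repressor REST, were each in 0 of 27, beside 2.03% and 0.433% of genes. Elements this rare would be absent from most sets of 27 genes, so these counts do not set the members apart. Kcnh3, Cacna1g and Cacna1h had no window and were not searched. The GC box GGGCGG was in 18 of 27 members, beside 38.2% of genes, and TATAAA in 2 of 27, beside 15.7%. The median GC content was 62.5% in the members' windows and 52.7% in all windows. The 250 bases before 1 start site are shown for Hcn2 and Kcnj4, the most reduced members that have a window, to show this composition, with the GC box or its reverse complement in capitals. That of Hcn2 lies at chr10:79716384-79716633 on the plus strand and that of Kcnj4 at chr15:79505242-79505491 on the minus strand, before a start site that is not the outer end of the gene model.
Hcn2: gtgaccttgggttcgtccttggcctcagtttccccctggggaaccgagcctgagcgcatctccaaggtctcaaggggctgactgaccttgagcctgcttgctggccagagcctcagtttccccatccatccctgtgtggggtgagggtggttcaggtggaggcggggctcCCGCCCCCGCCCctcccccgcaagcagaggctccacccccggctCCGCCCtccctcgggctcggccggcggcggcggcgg
Kcnj4: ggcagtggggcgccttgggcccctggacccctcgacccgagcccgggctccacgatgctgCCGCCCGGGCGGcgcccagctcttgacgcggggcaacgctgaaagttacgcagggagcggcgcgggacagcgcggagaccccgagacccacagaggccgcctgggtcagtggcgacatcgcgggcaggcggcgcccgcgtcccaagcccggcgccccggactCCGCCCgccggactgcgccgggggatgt
Each window held 3 GC boxes, all 3 on the opposite strand in Hcn2. In Kcnj4 1 was on the strand of the gene, and it adjoined 1 on the opposite strand. A match is a run of letters and was not tested as a binding site.

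The counts turned on FF4. Without it, 15 members were called lower (40.5%) and 2 higher, beside 18.9% and 9.36% of tested genes. Those called lower were all 7 calcium channel genes, Hcn2, Scn8a, Kcnk2, Kcnj3, Kcnq5, Kcna1, Kcnc1 and Kcnh3, and those called higher were Kcnh1 and Kcnt1. In all 15 of the former FF4 was the lowest Control library, and in 12 of them it still lay above every CAP1-KO library. Against FF4 alone, a comparison that assumes this single library to vary as the CAP1-KO libraries do, limma called 0 members, beside 0.0864% of tested genes lower and 0.31% higher. At an unadjusted p under 0.05 10 members were lower and 0 higher, beside 5.04% and 3.28%. The median was -0.14 against FF4 alone and -0.16 without FF4. In 27 members every CAP1-KO library lay below FF4, beside 27.9% of tested genes, and in 4 every one lay above, beside 28.0%. Over all 37 members FF4 was the lowest Control library in 19 and the highest in 16. No share of all tested genes is given beside these counts or beside the 15 and 12 above. None of them can therefore be read as a trait of channel genes. The comparisons without FF4 and against FF4 alone share the CAP1-KO libraries, so they are not independent of each other. For Kcnh3, Hcn2, Cacna1g, Kcnn1, Kcnj4 and Kcnj6 the log2 fold change against FF4 alone lay between -0.63 and -0.40. Kcnt1 also lay in this range, at -0.41, but was at 0.47 without FF4. For Cacna1c and Scn8a the log2 fold change against FF4 alone was -0.02 and -0.03.

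**Figure D4:**
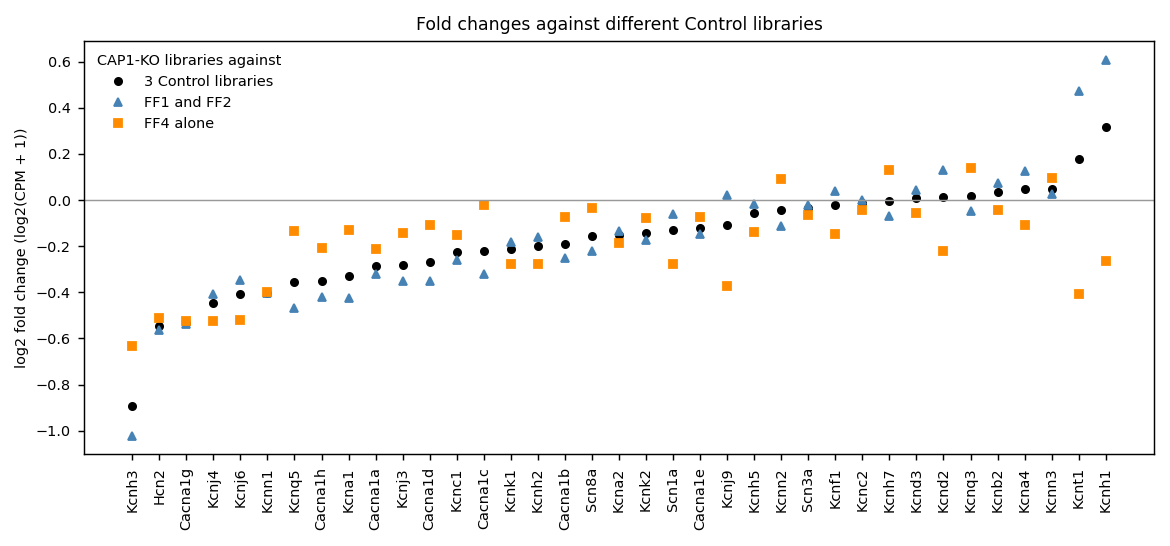
Log2 fold change of each channel gene (log2(CPM + 1) scale) for the CAP1-KO libraries against all 3 Control libraries (black), FF1 and FF2 (blue triangles) and FF4 alone (orange squares), ordered by the first. The comparisons share libraries. For Kcnt1 and Kcnh1 the sign against FF4 alone is opposite to that against FF1 and FF2.

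Other genes of the channel machinery gave medians close to that of the members. The counts below stand beside these shares of all tested genes. In limma 0.403% fell and 0.562% rose, and at an unadjusted p under 0.05 15.3% were lower and 7.74% higher. In 14.6% the CAP1-KO libraries all lay below Control and in 11.1% above. Without FF4 18.9% were called lower and 9.36% higher. Of 44 tested further pore-forming channel genes 1 fell and 0 rose (limma), with 14 lower and 2 higher at an unadjusted p under 0.05 and a median of -0.12; in 13 the CAP1-KO libraries all lay below Control and in 2 above. Without FF4 15 were called lower and 6 higher, and against FF4 alone 0 were called, with 6 lower and 0 higher at an unadjusted p under 0.05. The gene that fell was Kcnk9, which encodes the leak channel TASK-3. It measured 6.32, 6.91 and 5.98 CPM in Control and 3.59, 3.93 and 3.73 CPM in CAP1-KO (fold change on the log2 scale -0.64, SE 0.09, limma adjusted p = 0.0246, kept in 7 of 14 alternatives). Cacna1i, the T-type gene outside the 37, measured 60.7, 65.8 and 51.4 CPM in Control and 30.5, 43.3 and 34.8 CPM in CAP1-KO (fold change on the log2 scale -0.70, limma adjusted p = 0.0631); it was named after its value was seen. Of 39 tested auxiliary subunits 0 were called in either direction by limma or limma-voom, with 16 lower and 3 higher at an unadjusted p under 0.05 and a median of -0.12. Without FF4 15 were called lower and 6 higher, and against FF4 alone 0, with 10 lower and 2 higher at an unadjusted p under 0.05. For the auxiliary list, the authors' deposited table has Kcnab1 and Kcne2 higher and Cacng8 and Lrrc55 lower at an FDR under 0.05. Such calls took in 0.401% of its genes as higher and 0.412% as lower. The authors' average log2 level of Kcne2 was low, at -0.0036. The choroid plexus markers were also higher in CAP1-KO, and their part in the Kcne2 value was not tested. Of 14 genes of the axon initial segment and node, where sodium and Kv7 channels are anchored, 1 fell and 0 rose, with a median of -0.12. At an unadjusted limma p under 0.05, 7 of the 14 were lower and 0 higher. In 7 the CAP1-KO libraries all lay below Control and in 1 above. Without FF4 7 were called lower and 3 higher, and the median against FF4 alone was -0.13. The gene that fell was Sptbn4, the beta-IV spectrin of that scaffold, at 214, 227 and 195 CPM in Control and 137, 160.5 and 139 CPM in CAP1-KO (fold change on the log2 scale -0.54, SE 0.08, limma adjusted p = 0.0294, kept in 7 of 14 alternatives). Both Kcnk9 and Sptbn4 were separated between groups, and in both FF4 was the lowest Control library.

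**Figure D5:**
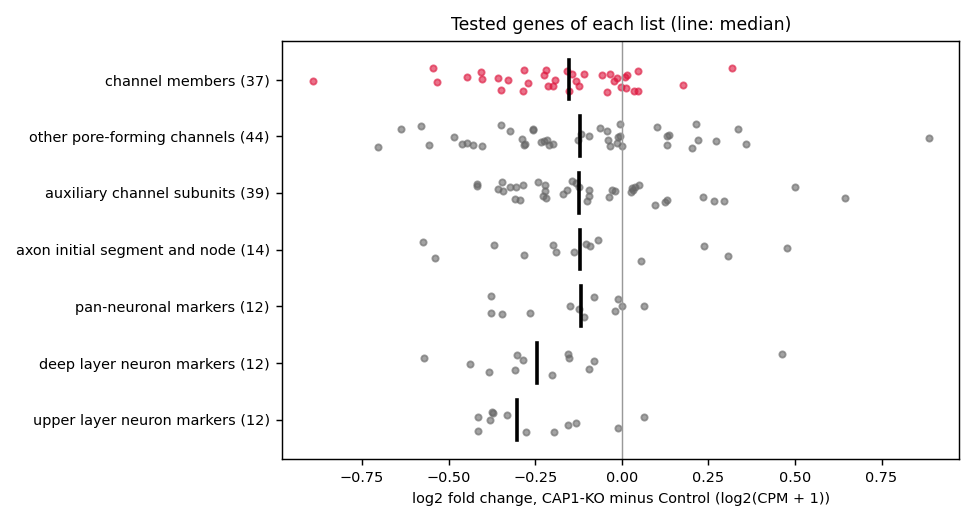
Log2 fold change (CAP1-KO minus Control, log2(CPM + 1) scale) of every tested gene in 7 lists, 1 point per gene, with the number of genes in parentheses and the list's median as a black line. The medians of the channel members, other channels, auxiliary subunits, initial segment genes and pan-neuronal markers lie between -0.15 and -0.12, and those of the layer markers are -0.24 (deep) and -0.30 (upper).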

How the data were processed

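The authors deposited 1 table of 27179 genes with log2 normalized counts per library, per the file headers. Per the file headers, the authors' own comparison stands beside them: a log2 fold change, an average log2 level, an F score, and a p-value with its FDR. STAR, edgeR, GRCm38 and mm10 are named in the submitters' processing notes; which counter and annotation were used is not given in the sources used here. Per the labels' protocols, stranded poly(A) libraries were made from about 150 ng of total RNA. Column names give genotype (FF, FCRE) but not the labels' replicate numbers, and that libraries are separate embryos rests on the labels' replicate wording.

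The shared lowest value (0.0584 CPM) was subtracted after taking antilogs. In every library 100% of values then fell within 0.01 of a whole read, and 1 CPM equals 31.2 to 37.3 reads. Because the table holds log2 values and not counts, limma 3.58.1 (R 4.3.3, intensity trend) was fitted to log2(CPM + 1) for the 13885 genes averaging 1 CPM or more. P-values are two-sided, adjusted by Benjamini-Hochberg, with a threshold of 0.05. The fit was tested on simulated reads drawn separately for each gene. Those reads held no library set apart across many genes, as FF4 is, so the test does not bear on that. An exact permutation of 3 against 3 cannot go below p = 0.1. Fold changes on this scale understate those of low genes. Members and lists were chosen with earlier results of these data known. Members with full values are those called here or by the authors, the 12 largest fold changes and the highest of each family per length; Cacna1i and further members are added. Of the other channel lists, called genes are named. Gene coordinates and promoters come from RefSeq (GRCm38.p6) and transcript lengths from GENCODE M21. Alternatives were other scalings, a pseudocount of 0.1 CPM, no filter, limma-voom, the deposited log2 values, leaving out each library, FF4 as the only Control, and Xist as a covariate. Figures used matplotlib 3.10.9.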

Additional observations from a re-analysis of the deposited data

How the results depend on the processing

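The count of channel members called, 1 lower and 0 higher, became 2 lower with scaling to total recovered reads, and 0 each without the filter, with Xist as a covariate and against FF4 alone. Leaving out 1 library in turn gave 0 to 17 members called, 0 to 15 lower and 0 to 2 higher, the highest without FF4. The 2 called genes of the other channel lists became 0 under the same 3 settings, and 0 to 52 when 1 library was left out. The median of -0.15 became -0.087 with scaling to total recovered reads, which moved the median of all genes by 0.06 and left 24 members negative. Members whose CAP1-KO values were all under the lowest Control value numbered 15, and 16 to 20 with 1 library left out. Against FF4 alone such members numbered 27, and a further 4 had all CAP1-KO values above FF4. Separation from this 1 library was also more frequent among all tested genes, at 27.9% below FF4 and 28.0% above. With all 3 Control libraries it was 14.6% below and 11.1% above, so 15 and 27 cannot be compared directly. No share of all tested genes stands beside 16 to 20. Kcnh1 reversed to -0.26 and Kcnt1 to -0.41 against FF4 alone. Sign also changed in at least 1 alternative for Kcnj9 and for 11 of the 12 members with an absolute log2 fold change under 0.1. Other scaling by median ratios, a pseudocount of 0.1 CPM, limma-voom and the deposited log2 values changed no call among the 20 members followed. The cause was not tested.

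No paired analysis was possible because the columns carry library numbers other than the replicate numbers in the labels, and Control and CAP1-KO columns share only 1 number. The 95% intervals from limma are for the difference between group means, with 3 libraries a group and a variance moderated over all tested genes. They do not describe the spread of single libraries. Members had at least 99 reads in every library.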

Other observations

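The 3 Kv1 beta subunit genes, chosen after their values were seen, had fold changes of unlike sign. By limma or limma-voom 0 were called in either direction. All 3 had an unadjusted p under 0.05, beside 15.3% of all tested genes lower and 7.74% higher at that threshold. Kcnab1 measured 16.0, 18.0 and 18.0 CPM in FF1, FF2 and FF4 and 22.0, 28.4 and 24.5 CPM in CAP1-KO, without overlap (log2 fold change 0.50, limma adjusted p = 0.0668). Its paralog Kcnab2 measured 32.1, 31.5 and 31.3 CPM in Control and 26.5, 26.0 and 24.4 CPM in CAP1-KO, also without overlap (log2 fold change -0.30, limma adjusted p = 0.0587). Kcnab3 measured 12.4, 13.1 and 11.33 CPM in Control and 10.4, 8.22 and 8.28 CPM in CAP1-KO, again without overlap (log2 fold change -0.42, limma adjusted p = 0.0983). The authors' deposited table gives an FDR of 0.0427 for Kcnab1, 0.0559 for Kcnab2 and 0.111 for Kcnab3. The difference between these 3 genes was not tested.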
